A study of Mus musculus with 17 samples.

Results

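The genes described here are 7 genes whose products make reactive oxygen species, nitric oxide or itaconate in inflamed tissue: Cybb, Cyba, Ncf1 and Ncf4 of the phagocyte NADPH oxidase, Nox4, Nos2 and Acod1. They were taken by symbol from a table of read counts for 45777 genes, and all 7 were among the 22052 genes that passed the low-count filter. The libraries came from lungs of wild-type male C57BL/6 mice, which were 6 weeks old on arrival and were irradiated after a week of acclimatisation. A single dose of 65 or 75 Gy had been given focally to the left lung, and controls received no radiation. Lungs were collected after 2 or 6 weeks, which gave 3 libraries for each of 5 groups (control, 65 Gy and 75 Gy at 2 weeks, control and 75 Gy at 6 weeks) and 2 libraries for 65 Gy at 6 weeks. RNA of irradiated mice was taken from the lesion in the irradiated area. The labels do not say whether the libraries of a group came from separate mice, and p-values then measure only the spread between libraries.

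The phagocyte NADPH oxidase (NOX2) sits in membranes of neutrophils and macrophages and passes electrons from NADPH to oxygen, which makes superoxide. Cybb encodes its catalytic subunit and Cyba the membrane partner that stabilises it, while Ncf1 and Ncf4 encode cytosolic subunits that join the membrane pair when the cell is activated. Nox4 encodes a relative of Cybb that also uses the Cyba protein, is found in fibroblasts, endothelium and muscle, and is active without the cytosolic subunits. Nos2 encodes the inducible nitric oxide synthase, which makes nitric oxide from arginine, and Acod1 the enzyme of activated macrophages that turns the citrate-cycle intermediate cis-aconitate into itaconate. Interferon-gamma and bacterial products are known inducers of both of these genes in macrophages.

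The 3 genes that were called in comparisons with controls (Cybb, Cyba and Acod1, as given below) are shown with the 250 bases before their RefSeq start site in GRCm38.p6, since these windows are where letters of inflammatory transcription factors were searched for. The windows are chrX:9469325-9469574 on the minus strand for Cybb, chr8:122432941-122433190 on the minus strand for Cyba and chr14:103046762-103047011 on the plus strand for Acod1, each written 5′ to 3′ in the direction of the gene. The Cybb window lies inside the span of the gene given below, so its start site is not at the outer end of that span. Capitals mark matches to the motifs described after the sequences.
Cybb: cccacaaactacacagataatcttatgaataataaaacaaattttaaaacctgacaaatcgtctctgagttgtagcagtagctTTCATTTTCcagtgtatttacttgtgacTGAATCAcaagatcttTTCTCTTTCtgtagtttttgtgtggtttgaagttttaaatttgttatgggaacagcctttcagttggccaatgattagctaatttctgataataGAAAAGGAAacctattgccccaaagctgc
Cyba: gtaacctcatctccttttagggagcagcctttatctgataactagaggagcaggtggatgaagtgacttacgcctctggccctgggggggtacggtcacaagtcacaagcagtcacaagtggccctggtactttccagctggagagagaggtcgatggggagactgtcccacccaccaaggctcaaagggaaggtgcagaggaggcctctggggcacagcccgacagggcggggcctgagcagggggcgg
Acod1: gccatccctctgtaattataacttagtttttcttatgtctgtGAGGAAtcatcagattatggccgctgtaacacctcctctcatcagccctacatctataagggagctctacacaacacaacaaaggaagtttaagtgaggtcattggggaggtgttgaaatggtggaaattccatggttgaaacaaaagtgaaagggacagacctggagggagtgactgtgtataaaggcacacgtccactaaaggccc

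The motifs searched on both strands were GAS (TTCNNNGAA), the core repeat of the interferon-stimulated response element (GAAANNGAA, written ISRE core), PU.1 (GAGGAA), AP-1 (TGANTCA) and the consensus of NF-kB. The Cybb window held 3 ISRE cores, from -167 to -159 and from -123 to -115 on the opposite strand and from -29 to -21 on the gene's strand, counted from the start site, and an AP-1 match from -139 to -133. The Acod1 window held a PU.1 match from -208 to -203, and the Cyba window held none of the 5 motifs. Of the other windows, that of Ncf1 held a GAS match from -88 to -80 that overlapped an ISRE core from -82 to -74, and that of Nox4 a GAS match from -222 to -214. Over 32851 RefSeq windows of the same length, 7.02% held GAS, 7.13% an ISRE core, 23.3% PU.1, 6.75% AP-1 and 7.25% NF-kB. A match is only a run of letters, and a window without a match says nothing of the factor. The Nox4 window, like that of Cybb, lies inside the span of its gene. Windows for Ncf4 and Nos2 were not analysed here.

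The counts of a library summed to between 46764569 and 66797879, with a median of 57608149, and levels are given as CPM, the read count scaled to the library total and its TMM factor. The lowest count of any of the 7 genes was 41 reads, for Acod1 in a 65 Gy library of 6 weeks. Lung epithelium markers such as Sftpc were present in every library, with a summed level of 7 markers between 18073 and 38900 CPM (control, 65 Gy and 75 Gy together). Library 3134 of 75 Gy at 2 weeks stood apart: it had the highest CPM of all 17 libraries for 6 of the 7 genes and the lowest for Nox4, and values that rest on it are given with and without it.

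Per kilobase of exon, the levels of the 6 control libraries were led by Cyba, at 73.8 ± 7.25 CPM per kb (SD, n = 6). Nox4 followed at 25.6 ± 2.97, Ncf1 at 20.3 ± 3.87 and Cybb at 17.4 ± 3.11 CPM per kb. The ranges of these 3 genes overlapped, at 21.4 to 29.2, 14.0 to 25.2 and 13.3 to 22.9 CPM per kb. Within a library, Nox4 was above Cybb in 6 of 6 controls, Nox4 above Ncf1 in 5 of 6 (not in 3128) and Ncf1 above Cybb in 5 of 6 (not in 3137). Ncf4 lay at 9.81 ± 1.90 CPM per kb, with a highest control of 13.3 at the level of the lowest control of Cybb. Nos2 at 1.19 ± 0.14 and Acod1 at 0.51 ± 0.09 CPM per kb were the lowest, and their ranges (1.03 to 1.42 and 0.40 to 0.63) overlapped with no other gene of the 7. In irradiated lung at 2 weeks the mean level of Cybb was 59.7 CPM per kb (43.4 without library 3134), that of Acod1 6.53 CPM per kb (3.0 without it) and that of Nos2 2.21 CPM per kb (1.92 without it), and Acod1 was above Nos2 in 5 of 6 libraries (not in 3132). At 6 weeks the irradiated mean of Acod1 was 0.48 CPM per kb.

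**Figure D1:**
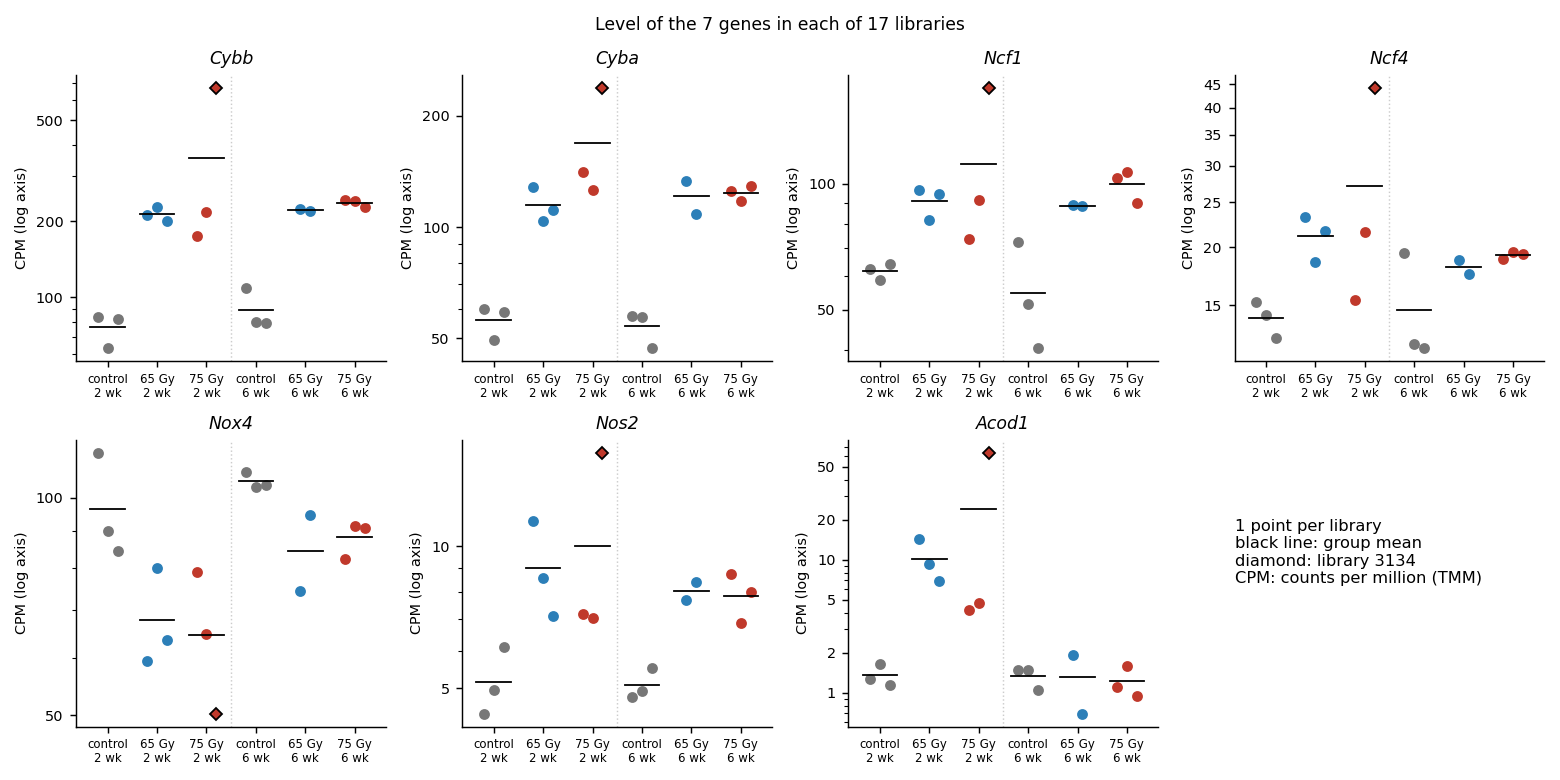
CPM (log axis) of each of the 7 genes in the 17 libraries, by dose and time, with 1 point per library, a line at the group mean and a diamond for library 3134. Cybb and Cyba lay above the controls in every irradiated library at both times, Acod1 only at 2 weeks, and library 3134 reached 672 CPM of Cybb and 63.5 CPM of Acod1.

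The first question was which of the 7 genes differed between irradiated and control lung at each dose and time. In edgeR's quasi-likelihood test, a gene was called when its Benjamini-Hochberg adjusted p over all genes tested was at most 0.05 and its log2 fold change at least 1 in size. At 2 weeks, Cybb, Cyba and Acod1 rose at both doses, which made 3 of 7 genes at 65 Gy, where 4.35% of all genes were called, and 3 of 7 at 75 Gy, where 7.74% were called. At 6 weeks, Cybb and Cyba rose at both doses and Acod1 was not called, which made 2 of 7 at 65 Gy (5.28% of all genes) and 2 of 7 at 75 Gy (10.4% of all genes). Ncf1, Ncf4, Nos2 and Nox4 were called in none of these 4 comparisons. By the adjusted p alone, with no limit on the fold, 3 of 7 genes passed at 65 Gy and 2 weeks (11.0% of all genes), all 7 at 75 Gy and 2 weeks (22.3%), 2 of 7 at 65 Gy and 6 weeks (14.7%) and 3 of 7 at 75 Gy and 6 weeks (36.0%). Without library 3134 these counts were 7 of 7 (15.8% of all genes), 3 of 7 (15.0%), 4 of 7 (19.0%) and 4 of 7 (39.6%) in the same order. The order of the doses at 2 weeks thus turned round, but 75 Gy then had 2 libraries. The 65 Gy folds of the genes that newly passed at 2 weeks did not move (Ncf1 0.56, Ncf4 0.59, Nox4 -0.51 and Nos2 0.80 in both fits). Between the doses at 2 weeks, 0 of 7 genes were called without 3134. The irradiated and control libraries did not overlap for 7 of 7 genes at 2 weeks at either dose (29.4% of all genes at 65 Gy and 30.2% at 75 Gy). At 6 weeks they did not overlap for 5 of 7 at either dose (56.3% and 57.1% of all genes). The median log2 fold change of the 7 genes was 0.80, 0.95, 0.66 and 0.63 in the order 65 and 75 Gy at 2 weeks and 65 and 75 Gy at 6 weeks, against -0.01 to 0.04 over all genes tested. In these bulk samples, more cells of a type and more RNA per cell cannot be told apart.

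**Figure D2:**
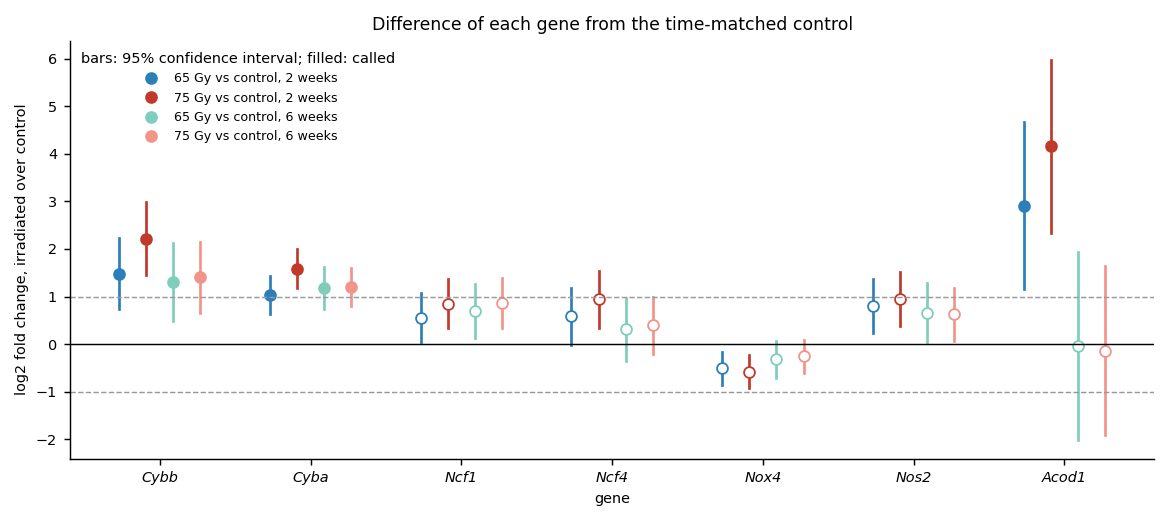
Log2 fold change over the control of the same time (y axis) for each gene (x axis) and comparison, with 95% confidence intervals as bars, filled points for called values and dashed lines at the fold limit. Cybb and Cyba were called in all 4 comparisons, Acod1 in both comparisons of 2 weeks with log2 fold changes of 2.90 and 4.15, and the 4 values of Nox4 lay below 0.

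Cybb, the catalytic subunit, had 83.5, 63.1 and 82.5 CPM in the controls of 2 weeks. The 65 Gy libraries of 2 weeks had 211, 227 and 199 CPM, and the 75 Gy libraries 175, 218 and 672 CPM. Every irradiated library was above every control, and the 75 Gy group held both the lowest and the highest irradiated value of that time. Cybb rose by a log2 fold change of 1.48 ± 0.35 (SE) at 65 Gy, with an adjusted p of 0.015, and of 2.22 ± 0.36 at 75 Gy, with an adjusted p of 0.000686. At 6 weeks, the controls had 109, 79.7 and 79.6 CPM, the 65 Gy libraries 224 and 218 CPM and the 75 Gy libraries 242, 239.9 and 227 CPM. The irradiated values of 6 weeks lay close together, and library 3135 was the highest control. On the log2 scale Cybb rose by 1.31 ± 0.38 at 65 Gy (adjusted p = 0.0331) and by 1.40 ± 0.35 at 75 Gy (adjusted p = 0.0065) at 6 weeks. Without library 3134 the value for 75 Gy at 2 weeks was 1.36, still called (adjusted p = 3.21e-05). In that fit the 65 Gy values were again 1.48 at 2 weeks (adjusted p = 5.76e-06) and 1.31 at 6 weeks (adjusted p = 3.59e-05). The call at 65 Gy was lost at 2 weeks without control 3127 (adjusted p = 0.0639). At 6 weeks, where 65 Gy had 2 libraries, it was lost without any 1 of the 5 libraries compared (3135, 3136, 3137, 3138 or 3140), with log2 fold changes from 1.23 to 1.47 over the refits and an adjusted p of up to 0.142.

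Cyba, the membrane partner of Cybb and of Nox4, had 60.0, 49.4 and 58.8 CPM in the controls of 2 weeks. At that time the 65 Gy libraries had 129, 104 and 111 CPM and the 75 Gy libraries 141, 126 and 239 CPM. The groups did not overlap, and the irradiated libraries were within a narrower range than for Cybb. Cyba rose by a log2 fold change of 1.03 ± 0.19 at 65 Gy (adjusted p = 0.00288) and 1.59 ± 0.19 at 75 Gy (adjusted p = 6.85e-05), and 1.25 at 75 Gy without library 3134. At 6 weeks, the controls had 57.5, 56.9 and 46.9 CPM, the 65 Gy libraries 134 and 109 CPM and the 75 Gy libraries 125, 118 and 129 CPM, again without overlap. Cyba then rose by a log2 fold change of 1.17 ± 0.21 at 65 Gy (adjusted p = 0.00217) and 1.21 ± 0.19 at 75 Gy (adjusted p = 0.000288). The value at 65 Gy and 2 weeks was near the fold limit: it was 0.94 in the lowest refit, and the call was lost without library 3127 or 3129.

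Ncf1, the cytosolic organiser of the complex, had 62.5, 58.7 and 64.3 CPM in the controls of 2 weeks, 96.6, 81.8 and 94.6 CPM at 65 Gy and 73.7, 91.2 and 169.7 CPM at 75 Gy. At 6 weeks it had 72.6, 51.7 and 40.4 CPM in the controls, 89.0 and 88.2 CPM at 65 Gy and 103, 107 and 90.0 CPM at 75 Gy. All irradiated libraries were above the controls of their time, yet the controls of 6 weeks were widely spread. The log2 fold change was 0.56 ± 0.24 at 65 Gy and 2 weeks (adjusted p = 0.163) and 0.69 ± 0.27 at 65 Gy and 6 weeks (adjusted p = 0.0992). At 75 Gy it was 0.85 ± 0.24 at 2 weeks (adjusted p = 0.021) and 0.86 ± 0.24 at 6 weeks (adjusted p = 0.0129), both under the fold limit. Ncf1 was called at 75 Gy without library 3132 at 2 weeks (log2 fold change 1.07) or without control 3135 at 6 weeks (1.12), and it was 0.42 at 2 weeks without library 3134 (adjusted p = 0.136).

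Ncf4, the cytosolic subunit that binds a membrane lipid of phagosomes, had 15.2, 14.3 and 12.8 CPM in the controls of 2 weeks, 23.2, 18.6 and 21.7 CPM at 65 Gy and 15.4, 21.6 and 44.3 CPM at 75 Gy. By 6 weeks the controls had 19.5, 12.4 and 12.1 CPM, the 65 Gy libraries 18.8 and 17.5 CPM and the 75 Gy libraries 18.8, 19.5 and 19.4 CPM. The groups of 2 weeks did not overlap, by a margin of under 1 CPM at 75 Gy, and those of 6 weeks overlapped because of control 3135. The log2 fold change was 0.59 ± 0.28 (adjusted p = 0.208) and 0.94 ± 0.28 (adjusted p = 0.0258) at 2 weeks for 65 and 75 Gy. At 6 weeks it was 0.31 ± 0.31 (adjusted p = 0.558) and 0.39 ± 0.28 (adjusted p = 0.293). At 75 Gy and 2 weeks the value was 0.39 without library 3134 (adjusted p = 0.184) and passed the fold limit without 3126, 3132 or 3133, up to 1.22.

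Of the other genes of the phagocyte oxidase, Rac1, Rac2 and Cybc1 were called in none of the 4 comparisons with controls. Rac2, the GTPase of blood cells that switches the oxidase on, had log2 fold changes of 0.24, 0.40, -0.01 and 0.03 in the order 65 and 75 Gy at 2 weeks and 65 and 75 Gy at 6 weeks (adjusted p of 0.17 or more). Rac1, its widely expressed relative, was -0.28 at 65 Gy and 6 weeks (adjusted p = 0.0288) and -0.38 at 75 Gy and 6 weeks (adjusted p = 0.00092), under the fold limit. Cybc1, which encodes a chaperone of the Cybb protein, had log2 fold changes between -0.10 and 0.25 (adjusted p of 0.212 or more).

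The partners were also set against Cybb within each library, as the log2 ratio of their CPM, a description added after the values were seen and given with no test. Ncf1 relative to Cybb was between -0.98 and -0.10 in the controls, and its group means were -1.23, -1.49, -1.32 and -1.24 in the irradiated groups (65 and 75 Gy at 2 weeks, then 65 and 75 Gy at 6 weeks). For Ncf1, Ncf4 and Rac2 the ratio to Cybb was lower in every irradiated library than in every control. As Cybb itself rose, any gene that rose less than Cybb has a lower ratio by construction. The share of all genes with such a ratio was not computed, so it is no result about these partners. For Rac2 the group means went from 0.09 and 0.05 in the controls of 2 and 6 weeks to -1.17, -1.52, -1.26 and -1.31 in the same order. The ratio of Cyba to Cybb overlapped between irradiated libraries (-1.49 to -0.31) and controls (-0.92 to -0.35). Of 3 macrophage markers set against Cybb in the same way, Csf1r did not overlap, with 0.70 to 1.43 in controls and -0.47 to 0.27 in irradiated libraries. Adgre1 (-2.02 to -1.27 in controls and -2.07 to -1.27 in irradiated libraries) and Cd68 (-1.39 to -0.81 and -0.97 to -0.15) overlapped.

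Nox4 moved the other way in level. It had 115, 89.8 and 84.3 CPM in the controls of 2 weeks, 59.5, 80.0 and 63.7 CPM at 65 Gy and 78.9, 64.8 and 50.3 CPM at 75 Gy. At 6 weeks it had 109, 103 and 104 CPM in the controls, 74.4 and 94.5 CPM at 65 Gy and 82.3, 91.4 and 90.7 CPM at 75 Gy. Every irradiated library was below every control of its time. Its log2 fold change was -0.51 ± 0.16 at 65 Gy and 2 weeks (adjusted p = 0.053) and -0.58 ± 0.16 at 75 Gy and 2 weeks (adjusted p = 0.0174). At 6 weeks it was -0.32 ± 0.18 at 65 Gy (adjusted p = 0.254) and -0.26 ± 0.16 at 75 Gy (adjusted p = 0.221). None of these values reached the fold limit, and the value for 75 Gy at 2 weeks was -0.43 without library 3134 (adjusted p = 0.0783). Markers of fibroblasts and myofibroblasts, cells in which Nox4 is known, were called in 0 of 8 cases in each of the 4 comparisons of irradiated lung with controls. Of 4 endothelial markers, 3 (Cdh5, Cldn5 and Vwf) fell at 75 Gy and 6 weeks and 0 were called in the other comparisons, with medians of -0.64 and -0.76 at 2 weeks and -0.80 and -1.22 at 6 weeks. Their summed level was below every control in every irradiated library, at 2711 to 3244 CPM in the controls, 1963 to 2043 CPM at 65 Gy and 1282 to 2251 CPM at 75 Gy at 2 weeks, and at 2928 to 3080, 1764 to 1765 and 1239 to 1541 CPM at 6 weeks. At 65 and 75 Gy, 4.35% and 7.74% of all genes were called at 2 weeks and 5.28% and 10.4% at 6 weeks. Irradiated and control libraries did not overlap for 29.4% and 30.2% of all genes at 2 weeks and 56.3% and 57.1% at 6 weeks. The part of fibroblasts and endothelium in the values of Nox4 was not tested.

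The other NADPH oxidases and their partners were 8 genes, 7 of which passed the low-count filter, and their levels were low. Duox1, which encodes an oxidase of airway epithelium, and Duoxa1, which encodes the factor that matures it, rose at both doses at 6 weeks. Duox1 had 0 counts in all 6 controls, 47 and 28 counts at 65 Gy and 21, 42 and 49 counts at 75 Gy at 6 weeks, while its 6 irradiated libraries of 2 weeks had from 0 to 8 counts. Duoxa1 had 0 counts in the controls of 6 weeks, 27 and 12 counts at 65 Gy and 15, 15 and 17 counts at 75 Gy. Against a floor of 3 counts in each control library, the mean CPM of Duox1 was 12.2-fold higher at 65 Gy and 12.8-fold higher at 75 Gy. That of Duoxa1 was 6.31-fold and 5.32-fold higher in that order. The floor bounds the control side only, and the spread of the irradiated libraries did not enter. The adjusted p of edgeR was 0.00689 and 0.00183 for Duox1 and 0.0117 and 0.00468 for Duoxa1. The call of Duoxa1 at 65 Gy was lost without library 3138, and Duox1 was called at 75 Gy and 2 weeks without 3132. Noxo1, which encodes an organiser related to Ncf1, rose at 65 Gy and 2 weeks (1.05 ± 0.14, adjusted p = 0.000315), a call that was lost without library 3129, and was 0.82 ± 0.14 at 75 Gy and 2 weeks (adjusted p = 0.00102). Nox1, an oxidase known from the colon and named because it was called, fell at 75 Gy and 6 weeks (-1.45 ± 0.43, adjusted p = 0.0175), and this call was lost without library 3137, 3141 or 3142. At 65 Gy and 6 weeks Nox1 was at -1.48 ± 0.50 (adjusted p = 0.0596), which passed without 3132, 3134 or 3136.

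Nos2 had 4.42, 4.97 and 6.10 CPM in the controls of 2 weeks, 11.3, 8.58 and 7.12 CPM at 65 Gy and 7.20, 7.05 and 15.7 CPM at 75 Gy. By 6 weeks the controls had 4.78, 4.94 and 5.53 CPM, the 65 Gy libraries 7.70 and 8.40 CPM and the 75 Gy libraries 8.71, 6.88 and 7.98 CPM. The groups did not overlap at either time, and the irradiated levels at both times lay in the same range except for 11.3 and 15.7 CPM at 2 weeks. Its log2 fold change was 0.80 ± 0.26 at 65 Gy (adjusted p = 0.0639) and 0.95 ± 0.26 at 75 Gy (adjusted p = 0.0174) at 2 weeks. At 6 weeks it was 0.66 ± 0.29 at 65 Gy (adjusted p = 0.139) and 0.63 ± 0.26 at 75 Gy (adjusted p = 0.074). None was called, and at 75 Gy and 2 weeks the value lay between 0.46 without library 3134 (adjusted p = 0.106) and 1.15 over the refits without 1 library, with a call without 3128, 3132 or 3133.

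Of 12 other genes of nitric oxide synthesis, its substrate arginine and its cofactor, 2 were called at 65 Gy and 3 at 75 Gy at 2 weeks, and 1 at 65 Gy and 0 at 75 Gy at 6 weeks. Their median log2 fold changes in that order were 0.11, 0.25, 0.30 and 0.42. Of all genes, 4.35%, 7.74%, 5.28% and 10.4% were called in that order. Arg1, the arginase that competes with Nos2 for arginine, had 3.78, 1.69 and 2.17 CPM in the controls of 2 weeks, 10.1, 6.28 and 7.98 CPM at 65 Gy and 9.14, 16.8 and 49.7 CPM at 75 Gy. It rose at 2 weeks, by a log2 fold change of 1.67 ± 0.47 at 65 Gy (adjusted p = 0.0345) and 3.31 ± 0.49 at 75 Gy (adjusted p = 0.000358), and the latter was 2.35 without library 3134. The call at 65 Gy was lost without 3127, 3128, 3129 or 3131. Ass1, which makes arginine again from citrulline and is named because it was called, rose by 1.12 ± 0.31 at 65 Gy (adjusted p = 0.0297) and 1.65 ± 0.31 at 75 Gy (adjusted p = 0.00179) at 2 weeks. Slc7a2, an arginine transporter, rose at 75 Gy and 2 weeks (1.07 ± 0.20, adjusted p = 0.00178), a call that was also lost without control 3126. Gch1, which starts the synthesis of the cofactor tetrahydrobiopterin, had log2 fold changes of 0.55, 0.59, 0.78 and 0.79 in the order above, with adjusted p values from 0.000226 to 0.00855, all under the fold limit. Without library 3134 the calls at 75 Gy and 2 weeks were 1 of 12 (Arg1), with Ass1 at 0.92 and Slc7a2 at 0.67. At 65 Gy and 2 weeks Ass1 was called in no refit that left out 1 of the 6 libraries compared. Nos1, the neuronal synthase, rose at 65 Gy and 6 weeks (2.30 ± 0.71, adjusted p = 0.0415) from at most 19 counts in the controls, a call that was lost without 3130, 3131, 3135, 3136, 3138, 3140 or 3142.

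Acod1 had the largest fold changes of the 7 genes at 2 weeks and was called at neither dose at 6 weeks. The controls of 2 weeks had 1.28, 1.65 and 1.14 CPM, the 65 Gy libraries 14.2, 9.31 and 6.87 CPM and the 75 Gy libraries 4.20, 4.73 and 63.5 CPM. All irradiated libraries were above the controls, and apart from library 3134 the 75 Gy libraries were below those of 65 Gy. The log2 fold change was 2.90 ± 0.82 at 65 Gy (adjusted p = 0.035) and 4.15 ± 0.86 at 75 Gy (adjusted p = 0.00308). Without library 3134 it was 1.72 at 75 Gy, still called (adjusted p = 0.00583). In that fit the 65 Gy value was again 2.90, with an adjusted p of 6.32e-05. The call at 65 Gy was lost without any 1 of the 6 libraries compared (3126, 3127, 3128, 3129, 3130 or 3131), with log2 fold changes between 2.58 and 3.12 over the refits and an adjusted p of up to 0.109. By 6 weeks the controls had 1.49, 1.48 and 1.05 CPM, the 65 Gy libraries 1.91 and 0.700 CPM and the 75 Gy libraries 1.12, 1.59 and 0.949 CPM. The groups overlapped, with log2 fold changes of -0.03 ± 0.92 at 65 Gy (95% confidence interval -2.01 to 1.94) and -0.14 ± 0.83 at 75 Gy (-1.91 to 1.64). Changes within these intervals cannot be set aside, and the smallest change that this fit would call was not determined. The spread behind the intervals was shared by all 17 libraries, 3134 included, and intervals without 3134 are not given. Without 3134 the values were -0.03 (adjusted p = 0.964) and -0.14 (adjusted p = 0.784).

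**Figure D3:**
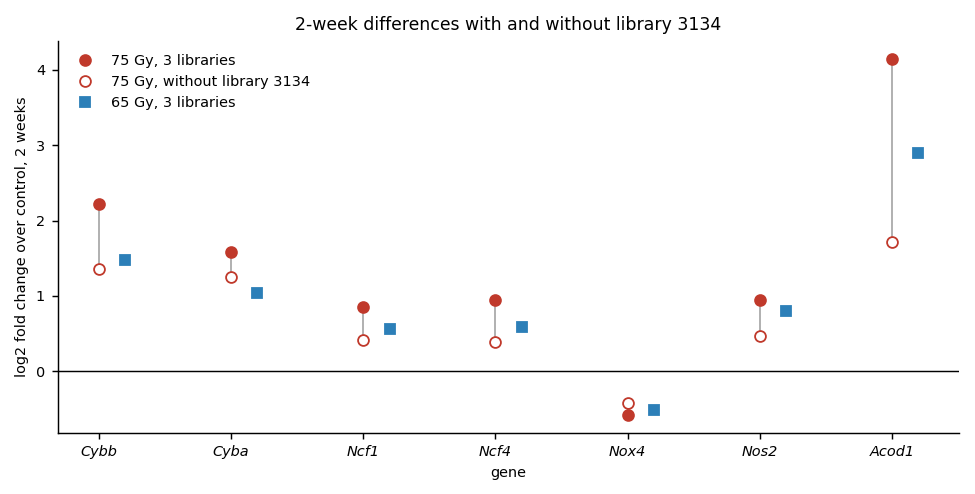
Log2 fold change over the controls at 2 weeks (y axis) for each gene (x axis) at 75 Gy with all 3 libraries (filled circles), at 75 Gy without library 3134 (open circles) and at 65 Gy (squares). For Acod1 the 75 Gy value went from 4.15 to 1.72, and for Cybb from 2.22 to 1.36, against 2.90 and 1.48 at 65 Gy.

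Of 7 other genes of the citrate branch, from which itaconate is drawn and through which it breaks down, 0 were called in each comparison. Their medians were 0.21, 0.17, 0.19 and 0.18 in the order above, where 4.35%, 7.74%, 5.28% and 10.4% of all genes were called. Slc25a1, the mitochondrial citrate carrier, had a log2 fold change of 0.45 ± 0.12 at 65 Gy and 2 weeks (adjusted p = 0.0283) and 0.51 ± 0.14 at 65 Gy and 6 weeks (adjusted p = 0.0209). Clybl, which takes part in the breakdown of itaconate, reached 0.47 ± 0.13 at 75 Gy and 6 weeks (adjusted p = 0.0125), and Suclg1, a subunit of succinyl-CoA synthetase, 0.42 ± 0.14 in that comparison (adjusted p = 0.027).

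The 18 inducers and transcription factors of Nos2, Acod1 and Cybb held 2 called genes at 65 Gy and 5 at 75 Gy at 2 weeks, and 0 of 18 at 6 weeks at either dose. Their median log2 fold changes were 0.30 and 0.44 at 2 weeks and 0.23 and 0.30 at 6 weeks. Of all genes, 4.35% at 65 Gy and 7.74% at 75 Gy were called at 2 weeks, and 5.28% and 10.4% at 6 weeks. When the effect at 6 weeks was set against that at 2 weeks, 0 of 18 were called at either dose. Few genes of any kind were called there, 0.0136% of all genes at 65 Gy and 0.254% at 75 Gy. Tnf, the inflammatory cytokine, had 1.10, 1.03 and 1.20 CPM in the controls of 2 weeks, 3.78, 3.27 and 3.10 CPM at 65 Gy and 3.38, 3.34 and 6.35 CPM at 75 Gy. Tnf rose by 1.61 ± 0.24 at 65 Gy (adjusted p = 0.000616) and 1.97 ± 0.24 at 75 Gy (adjusted p = 7.71e-05), and at 1.60 it was also called at 75 Gy without library 3134. Tlr2, the receptor of bacterial lipoproteins, and Irf8 and Spi1, which are factors of myeloid cells (the product of Spi1 is PU.1), are named because they were called at 75 Gy and 2 weeks, at 1.49, 1.02 and 1.07. The call of Irf8 was also lost without control 3126 or 3127. Without library 3134, Tnf was the 1 rising gene of the 18 that was called there, and Tlr2 was at 0.81, Irf8 at 0.60 and Spi1 at 0.67. Il1b, another inflammatory cytokine, then fell (-1.45, adjusted p = 0.0136), against -0.90 with all libraries. At 65 Gy and 2 weeks Tlr2 was called at 1.06 (adjusted p = 0.0379), a call that was lost without any of 3127 to 3131, 3136, 3138, 3140 or 3142. Ifngr2, a chain of the interferon-gamma receptor, and Hif1a, the hypoxia factor, reached 0.70 ± 0.10 (adjusted p = 0.000285) and 0.81 ± 0.12 (adjusted p = 0.000445) at 75 Gy and 2 weeks, under the fold limit.

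**Figure D4:**
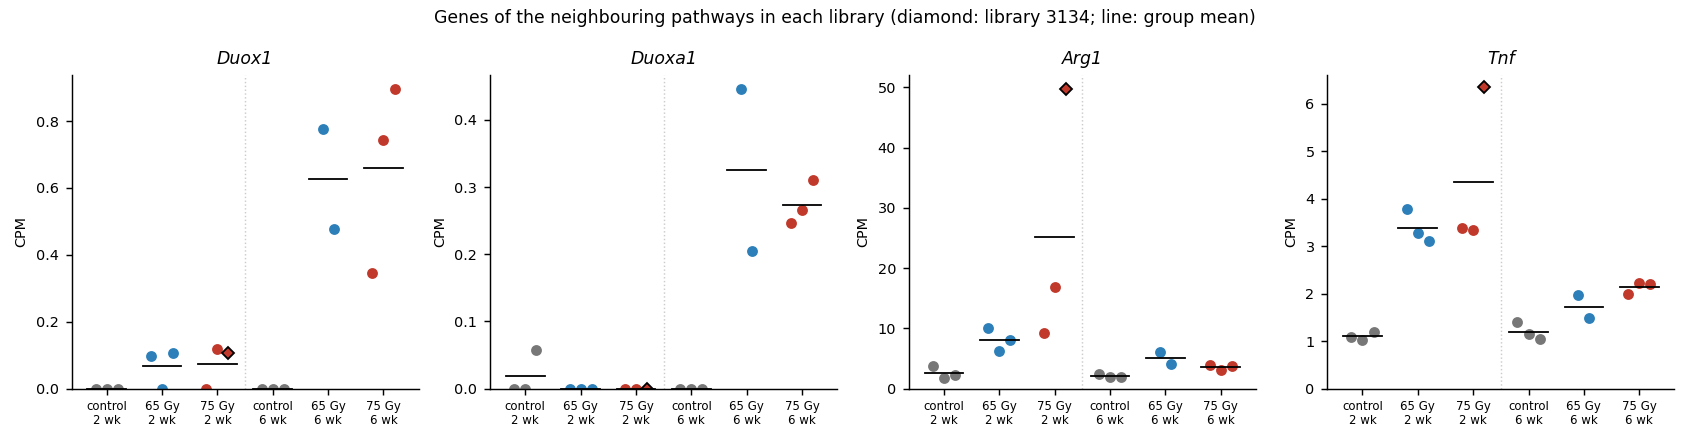
CPM of Duox1, Duoxa1, Arg1 and Tnf in each library (y axes from 0), by dose and time, with a line at the group mean and a diamond for library 3134. Duox1 and Duoxa1 were at 0 in the controls of 6 weeks and above 0 in all 5 irradiated libraries of that time, whereas Arg1 and Tnf were highest at 2 weeks, with 49.7 and 6.35 CPM in library 3134.

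The second question was whether the doses differed. Between 75 and 65 Gy, 0 of 7 genes were called at 2 weeks, where 0% of all genes were called, and 0 of 7 at 6 weeks, where again 0% were called. At an unadjusted p under 0.05, 2 of the 7 genes and 1570 of all genes passed at 2 weeks, and 0 of the 7 and 1431 of all genes at 6 weeks, and DESeq2 also called 0 of the 7 at both times. At 2 weeks the difference of Cyba was 0.56 (95% confidence interval 0.16 to 0.95, adjusted p = 0.693), that of Cybb 0.74 (0.00 to 1.47, adjusted p = 0.693) and that of Acod1 1.25 (-0.33 to 2.82, adjusted p = 0.701). Without library 3134 these were 0.22, -0.12 and -1.18, so the sign of Cybb and Acod1 rested on that library. At 6 weeks the difference of Cybb was 0.10 (-0.73 to 0.92) and that of Cyba 0.03 (-0.41 to 0.48), and that of Nox4 was 0.06 (-0.32 to 0.44). The interval of Acod1 at 6 weeks was far wider (-2.08 to 1.88). Those of Cybb and Acod1 at 2 weeks and of Acod1 at 6 weeks reached past the fold limit, and dose differences of that size cannot be set aside.

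The third question was whether the genes differed between the times. Between the control groups of the 2 times, edgeR gave 0 of 7 calls, where 0.576% of all genes were called, with 0 of the 7 at an unadjusted p under 0.05 and 0 in DESeq2. The largest difference was 0.23 ± 0.35, for Cybb. When the change that 65 Gy made by 6 weeks was set against that by 2 weeks, 0 of 7 were called (0.0136% of all genes), and that of 75 Gy gave 0 of 7 (0.254% of all genes), each with 1 of the 7, Acod1, at an unadjusted p under 0.05. For Acod1 the difference of the effects was -2.94 ± 1.24 at 65 Gy (adjusted p = 0.553) and -4.29 ± 1.17 at 75 Gy (adjusted p = 0.138), and the latter was -1.86 without library 3134 (adjusted p = 0.122), so that the fall from 2 to 6 weeks missed the threshold although 1 time was called and the other was not. DESeq2 called 0 of the 7 at 65 Gy and Acod1 at 75 Gy (adjusted p = 0.0139). Acod1 was also called by edgeR at 65 Gy without library 3134 (adjusted p = 0.0453) and at 75 Gy without library 3132 (adjusted p = 0.0491). For Cybb and Cyba the differences of the effects were -0.17 ± 0.52 and 0.14 ± 0.28 at 65 Gy and -0.81 ± 0.49 and -0.38 ± 0.26 at 75 Gy, and at 75 Gy they were 0.04 and -0.05 without library 3134.

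Of the cells that carry the phagocyte oxidase, macrophage and monocyte markers moved the same way as Cybb and Cyba by the median of their list. The median of the neutrophil list moved the opposite way. Of all genes, 4.35% at 65 Gy and 7.74% at 75 Gy were called at 2 weeks, and 5.28% and 10.4% at 6 weeks. Of 10 macrophage and monocyte markers, 5 at 65 Gy and 6 at 75 Gy were called at 2 weeks and 6 at each dose at 6 weeks, all of them higher, with medians of 1.01, 1.35, 1.40 and 1.72 on the log2 scale. The called markers included Cd68, Adgre1, Fcgr1 and Cd14 in all 4 comparisons. At 2 weeks Fcgr1 was the highest marker at both doses (2.21 and 3.04), and the lowest were Lyz2 at 65 Gy (0.22) and Mertk at 75 Gy (0.40). Their summed level was 5031 to 10528 CPM in the controls of 2 weeks, 8603 to 9422 CPM at 65 Gy and 11590.1 to 13796 CPM at 75 Gy, and it was 4422 to 4892, 10930.3 to 12305.5 and 13330.5 to 14500.5 CPM at 6 weeks. At 2 weeks the highest of these control sums was that of control 3126, above all 65 Gy libraries of that time. The Cybb of 3126 (83.5 CPM) was below theirs. In such a sum the most abundant markers weigh most. In the controls of 2 weeks the log2 ratios of Csf1r, Cd68 and Adgre1 to Cybb were at most 1.43, -0.81 and -1.27. Most of the sum in these controls thus came from other markers of the list, and the share of each was not tested. Without library 3134, 4 of the 10 were called at 75 Gy and 2 weeks, and without 3128 or 3129, 3 of the 10 at 65 Gy and 2 weeks.

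Of 8 neutrophil markers, 6 fell at each dose at 2 weeks and 2 at each dose at 6 weeks, with medians of -1.90, -2.02, -1.37 and -1.06 on the log2 scale. The lowest marker was Mpo at 65 Gy and 2 weeks, at -2.93 (adjusted p = 0.384), and Ly6g at 75 Gy and 2 weeks, at -2.44 (adjusted p = 0.00449), while Mmp8 was the highest in all 4 comparisons. The summed level was 444 to 695 CPM in the controls of 2 weeks, 161 to 212 CPM at 65 Gy and 138 to 253 CPM at 75 Gy, and it was 449.8 to 749 CPM, 135 to 357 CPM and 227 to 352 CPM at 6 weeks. The irradiated libraries did not overlap with the controls in this sum at either time. At 65 and 75 Gy, 29.4% and 30.2% of all genes did not overlap at 2 weeks and 56.3% and 57.1% at 6 weeks. At 65 Gy, the number that fell was 2 at 2 weeks without library 3129, 3 without 3127 or 3130, and 1 at 6 weeks without 3138. Among 6 alveolar macrophage markers, Marco rose and Ear2 fell at 65 Gy and 2 weeks and Marco rose at 75 Gy and 2 weeks. At 6 weeks 3 of the 6 rose at 65 Gy (Marco, Ear2 and Chil3) and 2 at 75 Gy (Ear2 and Chil3). The fall of Ear2 was not called without control 3126, nor the rise of Marco at 65 Gy and 6 weeks without 3138. Of the other lists, in the order 65 and 75 Gy at 2 weeks and 65 and 75 Gy at 6 weeks, 0, 0, 1 and 2 of 6 T and NK cell markers rose, and 0, 1, 0 and 1 of 4 B cell markers and 0, 1, 0 and 0 of 3 adipocyte markers fell. None of 7 lung epithelium, 3 cardiac muscle or 3 thymocyte markers was called, and the thymocyte sum was at most 1.44 CPM. No macrophage, alveolar macrophage or neutrophil marker was at 0 in all libraries of a group, and the part of these cells in the values of Cybb, Cyba, Ncf1 and Ncf4 was not tested.

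**Figure D5:**
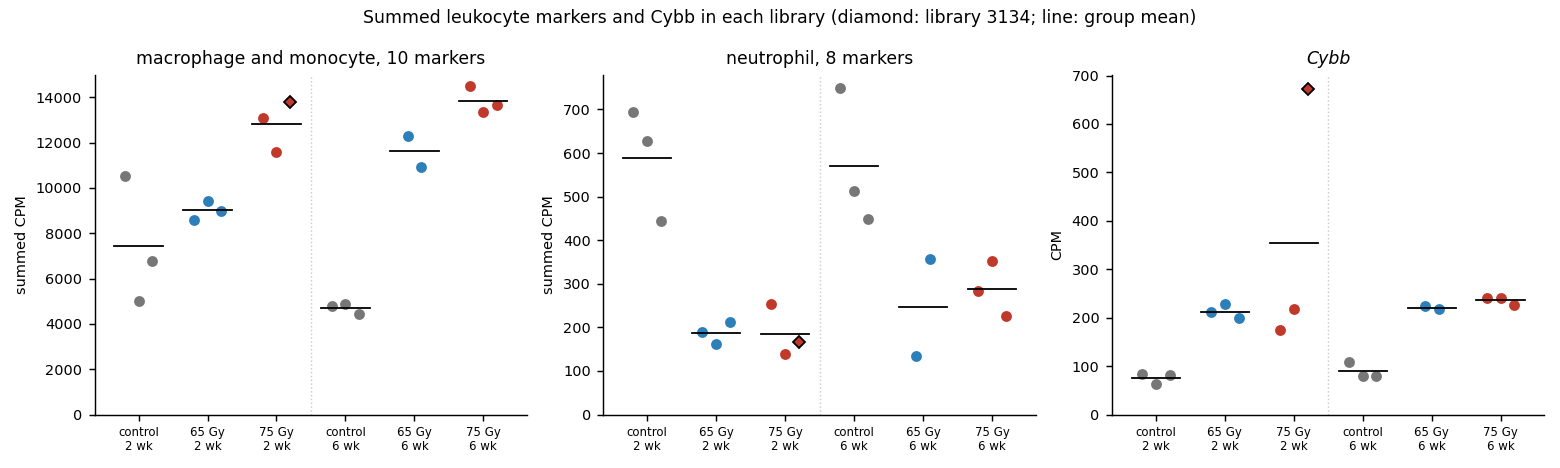
Summed CPM of 10 macrophage and monocyte markers and of 8 neutrophil markers, and CPM of Cybb, in each library (y axes from 0), with a line at the group mean and a diamond for library 3134. The macrophage sum at 6 weeks was 4422 to 4892 CPM in controls and 10930.3 to 14500.5 CPM in irradiated libraries. The neutrophil sum was lower in irradiated libraries at both times, and Cybb was higher. In these sums the most abundant markers weigh most.

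The genes whose log2 CPM was most like that of a member over the 17 libraries were sought among 14476 genes, as a description without a p, since the libraries share dose and time. For Cybb they were Nckap1l, which encodes an actin regulator of blood cells, with Pearson's r = 0.990, and Naip2 with r = 0.984. Without library 3134 these were 0.985 and 0.987, and within the groups 0.975 and 0.958. For Nox4 they were Sult1a1 (0.970) and Serinc3 (0.960), with 0.930 and 0.909 within the groups. For Nos2 they were Cotl1 (0.944) and Slc35f6 (0.942), with 0.901 and 0.887 within the groups. For Acod1 they were the interferon-signalling gene Stat2 (0.959) and the RNA sensor gene Ifih1 (0.958), with 0.923 and 0.925 without library 3134 and 0.920 and 0.847 within the groups.

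In GRCm38.p6, Cybb (GeneID 13058) lies at chrX:9435252-9487766 on the minus strand and Cyba (13057) at chr8:122424771-122432940 on the minus strand. Ncf1 (17969) lies at chr5:134220053-134229628 on the minus strand and Ncf4 (17972) at chr15:78244164-78262582 on the plus strand. Nox4 (50490) lies at chr7:87244430-87398710, Nos2 (18126) at chr11:78920787-78960226 and Acod1 (16365) at chr14:103047012-103056573, all on the plus strand. Cybb overlaps Gm33784, Ncf1 overlaps LOC115490142 and Acod1 overlaps Gm41235, which had 49 to 204, 16 to 60 and 3 to 122 counts per library. The kit was stranded, but whether the counting used strand was not stated, and reads shared by overlapping genes could have been counted for either.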

How the data were processed

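RNA was sequenced from 17 mouse lung libraries. According to their methods, the authors used Trimmomatic on paired reads of a stranded mRNA kit, HISAT2 for the alignment (GRCm38.p6) and StringTie for assembly. The deposited values are raw read counts, 1 whole number per gene and library. The step from StringTie to counts was not stated.

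A single model of edgeR 4.0.16 (R 4.3.3) held all 17 libraries and 6 group coefficients, after filterByExpr (minimum count 10, minimum total 15) and TMM factors. Groups were compared in 9 contrasts by the quasi-likelihood test, with Benjamini-Hochberg adjustment over 22052 genes. The SE was worked back as the size of the log2 fold change over the square root of that test's F statistic. The confidence intervals were built from this SE. Calls needed an adjusted p no higher than 0.05 together with a log2 fold change of 1 or more in size. Log2 CPM used a prior count of 2, and levels per kilobase used the merged exons of GENCODE. Upstream windows were found in RefSeq for 5 of the 7 genes. The test was tried on simulated counts. Counts give counting precision only, and a count of 0 was bounded by a floor of 3 counts per library.

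Groups follow the labels, and libraries are named by the labels' numbers. Alternatives were RLE and upper-quartile factors, 2 other filters, DESeq2 1.42.0, fits restricted to the groups compared, other call rules and leaving out each library. Leaving out a library for the gene lists, and library 3134 for the levels per kilobase and the passes by adjusted p alone, was added after the data were seen. Of each pathway list, the 3 genes with the smallest p are named, of lists under 5 all genes, of marker lists the highest and lowest, and for 4 genes the 2 most correlated ones. The choice of Ass1, Nos1, Nox1, Tlr2, Irf8, Spi1, Il1b, the called markers and the ratios to Cybb came after seeing values. The 7 genes and the lists were chosen with earlier results of these data known. The third 65 Gy library of 6 weeks was not analysed here. Values of 2 genes of the lists are not reported here, though they entered the fit and the list counts.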

Additional observations from a re-analysis of the deposited data

How the results depend on the processing

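Every called value of Cybb, Cyba and Acod1 kept its direction in all 250 refits, and 235 of these kept the call: 156 of 170 refits without 1 library and 79 of 80 under the other settings, the exception being Acod1 at 75 Gy and 2 weeks when only its own control and dose groups entered the fit (adjusted p = 0.0671). With 1 library left at 65 Gy and 6 weeks, that library is assumed to vary like the other groups. Without a fold-change limit, 7 of the 7 genes passed at 75 Gy and 2 weeks in place of 3. Without library 3134 and with no fold limit, 3 passed there and 7 at 65 Gy and 2 weeks. The effect of 6 weeks against that of 2 weeks gave 1 call, Acod1, in place of 0 with an unadjusted p at either dose and with DESeq2 at 75 Gy. Over the fits without 1 library, the number of the 7 genes called at 2 weeks was 0 to 3 for 65 Gy (0 without control 3127). For 75 Gy at 2 weeks it was 3 to 6 (6 without 3132). At 6 weeks it was 1 to 2 for 65 Gy (1 without control 3135, 3136 or 3137) and 2 to 3 for 75 Gy. The effect at 6 weeks against that at 2 weeks gave 0 to 1 at each dose, and the control groups of the 2 times gave 0. The cause of these changes was not tested, other than that fewer libraries entered. No paired analysis was possible because the numbers that name the libraries differ throughout and none recurs in another group.

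Of 63 log2 fold changes, 23 changed sign when 1 library was left out, none of them called. Their ranges over these fits were, for 75 against 65 Gy at 2 weeks, -0.12 to 1.06 (Cybb), -0.14 to 0.52 (Ncf1), -0.19 to 0.64 (Ncf4), -0.24 to 0.085 (Nox4), -0.34 to 0.35 (Nos2) and -1.18 to 1.74 (Acod1). At 6 weeks they were -0.12 to 0.18 (Cyba), -0.11 to 0.23 (Nox4), -0.13 to 0.046 (Nos2) and -0.66 to 0.79 (Acod1). For controls of 6 against 2 weeks they were -0.14 to 0.029 (Cyba), -0.42 to 0.0082 (Ncf1), -0.20 to 0.18 (Ncf4), -0.12 to 0.12 (Nos2) and -0.13 to 0.15 (Acod1). For irradiated against control lung at 6 weeks Acod1 was -0.92 to 0.53 at 65 Gy and -0.36 to 0.029 at 75 Gy. For the effect at 6 against 2 weeks they were -0.0065 to 0.29 (Cyba), -0.046 to 0.39 (Ncf1) and -0.28 to 0.058 (Nos2) at 65 Gy and -1.12 to 0.041 (Cybb), -0.19 to 0.45 (Ncf1) and -0.52 to 0.17 (Nos2) at 75 Gy.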
